A study of Mus musculus with 12 samples.

Results

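The microRNAs (miRNAs) described here are the miR-17, miR-18 and miR-19 seed families, 10 names that a rule on names picks from a panel of TaqMan real-time PCR assays: miR-17, miR-18a, miR-18b, miR-19a, miR-19b, miR-20a, miR-20b, miR-93, miR-106a and miR-106b. They were carried by 13 of the panel's 750 miRNA assays. Starred strands were not counted as members. Pancreatic islets, the clusters of endocrine cells that hold the insulin-secreting beta cells, were isolated from male C57BL/6 offspring at 2 to 3 months of age. The mothers of the LP0.5 offspring had eaten a low-protein diet through pregnancy, and those of the Control offspring a control diet. By the labels there are 6 samples of LP0.5 and 6 of Control, and islets were picked by hand and rested overnight in culture medium before RNA was isolated. Nothing in the labels says whether a sample pools animals. The question the design poses is which islet miRNAs differ in adult offspring after that exposure.

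An miRNA represses messenger RNAs that pair with its seed, the bases 2 to 8 counted from its 5′ end, so miRNAs that share a seed share most of their potential targets. The miR-17, miR-18 and miR-19 families are made from polycistronic transcripts that the transcription factors Myc and E2F switch on. They are known to promote cell cycle entry and survival, among other ways by repressing the cell cycle inhibitor Cdkn1a and the pro-apoptotic Bcl2l11. In mouse beta cells, loss of the miR-17 to miR-92a cluster is known to impair insulin secretion.

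The mature sequences below show what separates the 3 families, with the seed in capitals and the sequences credited to RefSeq, mouse build GRCm38.p6. All 10 member names had an entry.
miR-17: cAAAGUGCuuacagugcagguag
miR-20a: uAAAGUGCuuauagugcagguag
miR-20b: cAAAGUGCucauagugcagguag
miR-93: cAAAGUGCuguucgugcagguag
miR-106a: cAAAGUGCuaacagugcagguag
miR-106b: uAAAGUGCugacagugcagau
miR-18a: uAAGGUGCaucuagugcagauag
miR-18b: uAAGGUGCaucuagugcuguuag
miR-19a: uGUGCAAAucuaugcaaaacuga
miR-19b: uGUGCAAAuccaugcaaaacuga

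The first 6 share the seed AAAGUGC, the next pair AAGGUGC and the last pair GUGCAAA. Among 1679 mature mouse miRNAs of the RefSeq table, 7 have the miR-17 seed (the other is miR-6383), 2 the miR-18 seed and 2 the miR-19 seed. The letters GUGC lie inside bases 2 to 8 of all 10 members, starting at base 5 in miR-17 and miR-18a and at base 2 in miR-19a. They were picked from the members' own seeds, so that count was fixed in advance. Of the 1679 mature miRNAs, members included, 69 (4.11%) have these letters there. Outside the seed the miR-17 family members are close copies. Across 15 pairs they differ at 1 to 5 bases, counted from 1 at the 5′ end and without gaps. MiR-17 and miR-106a differ by U10A alone, miR-17 and miR-20a by C1U and C12U, and miR-19a and miR-19b by U11C. The panel names carry human, rat and mouse prefixes, and how far an assay also reads a near-identical member was not tested.

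Of the 13 assays, 10 had a ratio in the authors' deposited table, covering 9 of the 10 names. The assay of miR-18b, the X-linked copy of miR-18a, had no ratio. The other 2 without one, rat-named assays of miR-17-3p and miR-20b-3p, fall under the naming rule but read the opposite strand of the hairpin, which does not carry the miR-17 seed. The table holds 1 linear ratio per assay, headed as LP0.5 against Control. With a single value per assay, neither an error nor a test can be attached to any member, and values per sample were not analysed here. By the heading a ratio below 1 means less of the miRNA in LP0.5 islets. That direction rests on the heading alone: the authors' deposited table gave 0.422 for miR-199a-3p, which the study is known for naming as raised in low-protein islets. Ratios are therefore given as listed below or above 1. In whole islets, fewer cells of a type and less RNA per cell cannot be told apart.

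Every member with a ratio was listed below 1. The 9 names ran from 0.461 to 0.957 with a median ratio of 0.873, against a median of 1.01 over the 528 miRNA names of the panel with a ratio. On the panel 49.6% of names were listed below 1. At least 1.5-fold below 1 were 3 of the 9 members, miR-17, miR-18a and miR-20b, against 17.6% of all names. Of the 10 member assays, 9 belong to the A set of assays and 1 to the B set, the 2 groups of 8 blocks that make up the panel. Of the 9 A set member assays, 9 were listed below 1 and 2 at least 1.5-fold below, against 52.3% and 15.8% of all A set miRNA spots.

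**Figure D1:**
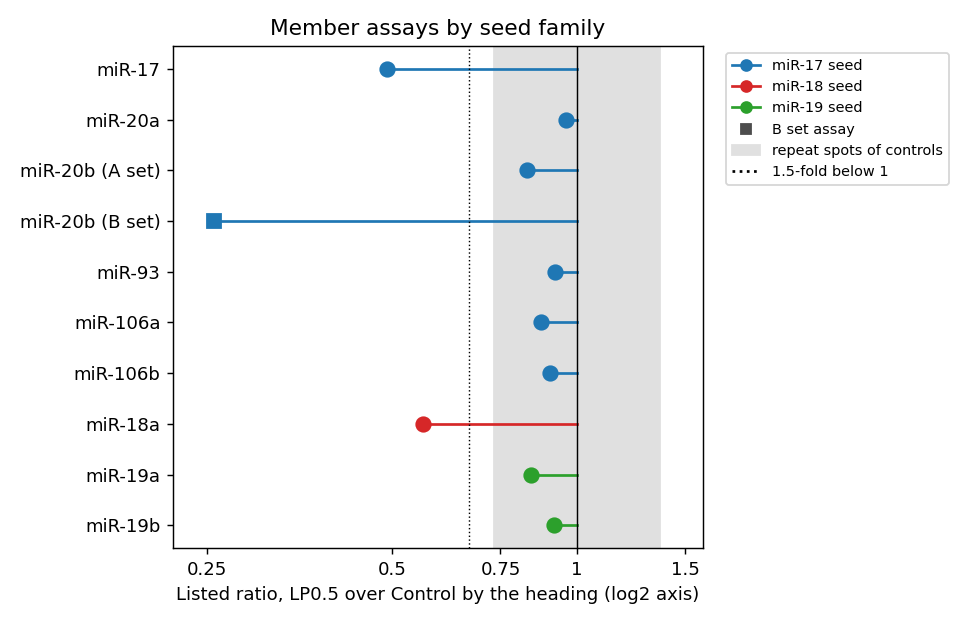
Listed ratio (LP0.5 over Control by the heading, log2 axis) of the 10 member assays, coloured by seed family. The grey band is drawn 1.37-fold to either side of 1. That is the distance within which 95% of repeated control spots lay from their own control's median, which need not be 1. It leaves out differences between animals. Inside it lie 7 assays between 0.827 and 0.957, and miR-18a, miR-17 and the B set assay of miR-20b lie outside at 0.561, 0.490 and 0.257.

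The distances from 1 fell into 2 ranges. For scale, 80 repeated spots of 5 small RNA controls deviated from their own control's median by up to 1.37-fold at the 95th percentile. Nearer to 1 than that were 7 member assays, which spanned 1.16-fold among themselves, so their order is not resolved by that measure. The other 3 were farther from 1. Repeated spots read the same samples, so that spread leaves out differences between animals. It also counts U6, the reference itself, with a log2 standard deviation of 0.03 against a mean of 0.27 over the 5 controls. Whether the 3 exceed the variation between animals was not tested. Where 1 miRNA name was read by a pair of assays, their ratios differed by 1.31-fold at the median of 38 pairs. The difference was 5.98-fold at the 95th percentile, and over 1.5-fold in 15 pairs. All 10 member assays lie within 5.98-fold of 1, although a difference between 2 assays is not a distance from 1.

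Within the miR-17 seed family, miR-17, the first miRNA of its cluster and the family's namesake, had a ratio of 0.490 in the authors' deposited table. MiR-20a, which comes from the same transcript and differs from it at 2 bases, was given 0.957 there, in the authors' deposited table. These 2 values are 1.95-fold apart. MiR-106a, the member nearest to miR-17 in sequence, had 0.873 in the authors' deposited table, on the side of miR-20a. MiR-106b and miR-93, repressors of Cdkn1a that come from an intron of the DNA replication gene Mcm7, had ratios of 0.902 and 0.921 in the authors' deposited table. Apart from miR-17 and miR-20b the family thus lay between 0.873 and 0.957.

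MiR-20b, an X-linked copy of miR-20a, is the 1 member read by 2 assays with a ratio. For its human-named assay, in the A set, the authors' deposited table gave 0.827, and for its rat-named assay, in the B set, 0.257. They are 3.22-fold apart, and 4 of the 38 assay pairs lay wider apart. The mean of the 2 on the log2 scale gives 0.461, so the place of miR-20b among the 3 lowest names rests on the B set assay. With the A set assay alone, 2 names were at least 1.5-fold below 1. The negative control of the same set is an assay for a plant miRNA that mice lack. It had ratios from 2.59 to 3.37 at its 8 B set spots in the authors' deposited table. Among its 8 A set spots, beside the 9 other member assays with a ratio, the authors' deposited table gave a ratio for 2, 0.139 for one and 1.96 for the other. An assay without a mouse target thus had ratios away from 1 in both sets, and its bearing on the members was not tested.

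In the miR-18 seed family, miR-18a had a ratio of 0.561 in the authors' deposited table, and the family's other member had no ratio. In the miR-19 seed family, known as the chief oncogenic part of the cluster in mouse lymphoma, the authors' deposited table gave 0.840 for miR-19a and 0.917 for miR-19b. The 2 miR-19 values are 1.09-fold apart. MiR-19b is made from 2 genes with the same mature sequence, and its assay cannot tell them apart.

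**Figure D2:**
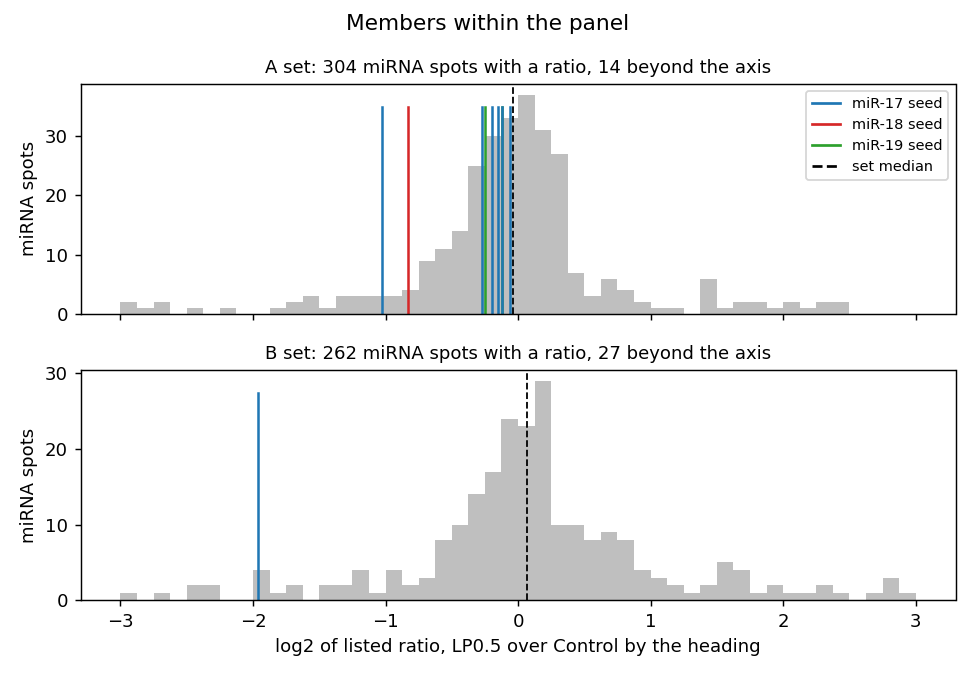
Histograms of the log2 listed ratio (LP0.5 over Control by the heading) of miRNA spots in the A set (304 spots) and the B set (262 spots), with members as coloured lines and the set median dashed. The 9 A set members all lie left of the A set median of -0.03, 7 of them within the central peak. The lines of miR-19b and miR-93 nearly coincide. The B set assay of miR-20b lies in the lower tail at -1.96.

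Placed among all 566 miRNA spots with a ratio and counted from the lowest, the B set assay of miR-20b ranked 37, miR-17 ranked 66 and miR-18a ranked 77. The A set assay of miR-20b ranked 167, miR-19a 174, miR-106a 198, miR-106b 209, miR-19b 222, miR-93 226 and miR-20a 250. The lowest 3 thus lay in the lower tail of the panel and the other 7 in its middle.

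The ratios are relative to the U6 small nuclear RNA, whose 8 spots in each set had a mean log2 of 0. Relative to snoRNA135, snoRNA202, U87 and Y1 instead, every A set ratio is divided by 1.15 and every B set ratio by 1.09. The 10 member assays then ran from 0.236 to 0.835, with miR-17 at 0.428, miR-18a at 0.490 and miR-20a at 0.835. With each set divided by its own median miRNA ratio they ran from 0.245 to 0.980. All 9 names stayed below 1 under both, and 3 names were at least 1.5-fold below. A shift of this kind leaves the distances between members of a set as they were.

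The members lie in 3 gene clusters of GRCm38.p6, and ratios were read along each. On chromosome 14 the cluster named for miR-17 and miR-92a spans chr14:115043671-115044506 on the plus strand. Its 5 member hairpins, in order along the transcript, are miR-17, miR-18a, miR-19a, miR-20a and miR-19b. The first 2 had ratios of 0.490 and 0.561 in the authors' deposited table, and the next 3 lay between 0.840 and 0.957. The last hairpin is miR-92a, no member, which carries the miR-25 seed and for which the authors' deposited table gave 0.460 under the older name miR-92. The low values thus stood at both ends of the cluster, a pattern of 1 value per miRNA with no error.

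On the X chromosome, chrX:52741693-52742567 on the minus strand holds the paralogous cluster. From its start, miR-106a had 0.873, miR-18b no ratio, miR-20b the pair of values given above, and miR-19b, shared with chromosome 14, had 0.917 in the authors' deposited table. It ends with miR-92a, also shared, and miR-363, at 0.411 in the authors' deposited table. In the third cluster, chr5:138165321-138165818 on the minus strand and inside Mcm7, miR-106b and miR-93 were 1.02-fold apart. For miR-25, the last hairpin there, the authors' deposited table gave 0.329. Across these clusters the 10 member assays had a median ratio of 0.856, against 0.411 over the miR-25 seed partners miR-25, miR-363 and miR-92a, a difference that was not tested.

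**Figure D3:**
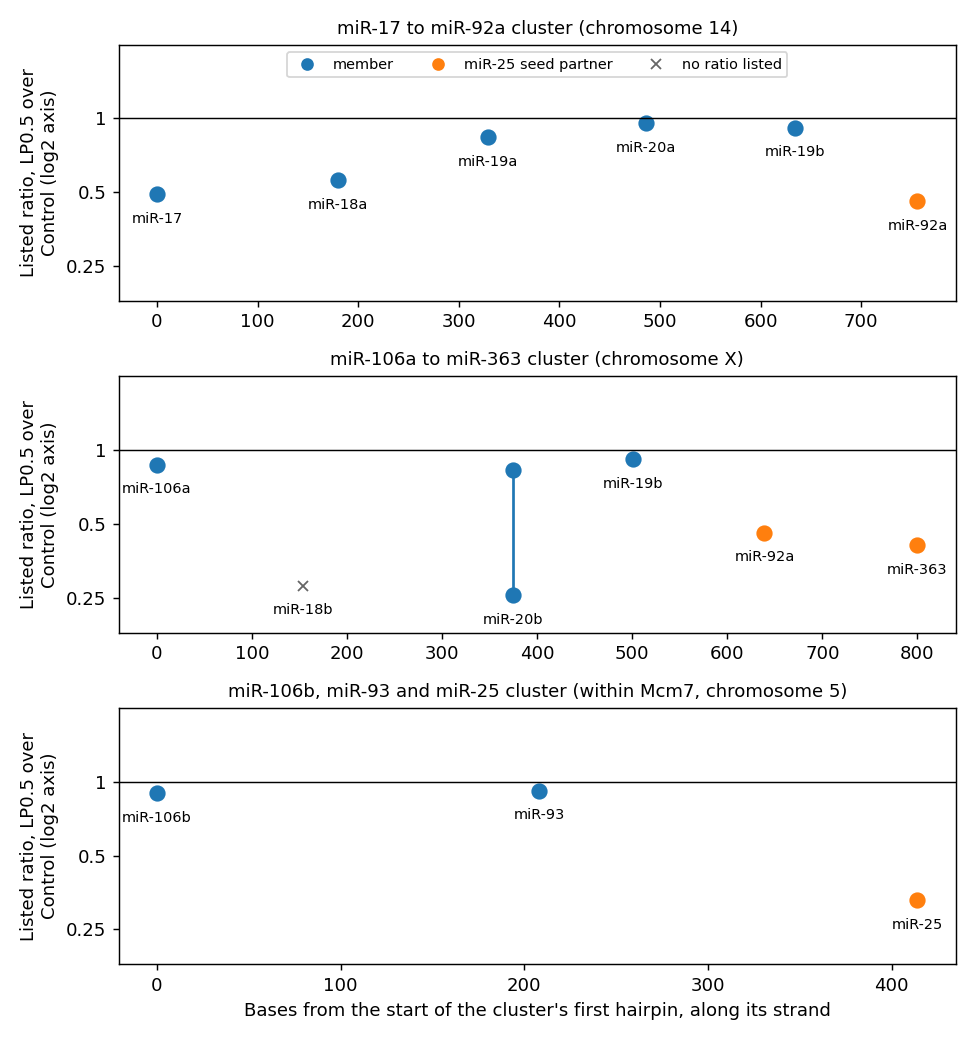
Listed ratio (LP0.5 over Control by the heading, log2 axis) against the distance in bases from the start of each cluster's first hairpin, along its strand. Members are blue, with both assays of miR-20b joined, miR-25 seed partners are orange, and the cross marks miR-18b, which has no ratio and no place on the vertical axis. Most members lie nearer to 1 than the partners, which lie at 0.329 to 0.460, and miR-19b and miR-92a are drawn at both of their genes.

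The partners differ from the members in seed, shown here for comparison with the sequences above (RefSeq, GRCm38.p6, seed in capitals).
miR-25: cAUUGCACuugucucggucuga
miR-92a: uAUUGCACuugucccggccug
miR-363: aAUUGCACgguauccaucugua

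The opposite strands of the member hairpins are usually degraded. Besides the 2 rat-named -3p assays without a ratio, they were assayed 8 times under starred names. Of these starred assays 6 had a ratio, 1 for each of 6 hairpins. Of the 6, 5 were listed above 1, with a median ratio of 1.14, against 48 of all 88 starred spots of the B set with a ratio and a median of 1.06. For the starred strand of miR-18a the authors' deposited table gave 2.76, against 0.561 for the main strand. These 2 ratios, from different assay sets, are 4.91-fold apart, which is no difference in amount between the strands. Which cycles counted as detected is not given, so whether the starred strand was detected in both groups is unknown. The starred strand of miR-17 had 1.15, against 0.490 for miR-17, in the authors' deposited table. Those of miR-106b, miR-93 and miR-20a had 1.25, 1.14 and 1.09 in the authors' deposited table, each above its main strand. For miR-19a the order was the other way, with the starred strand at 0.628 and the main strand at 0.840 in the authors' deposited table. The starred strands of miR-17, miR-106b, miR-93 and miR-20a lay nearer to 1 than the 1.37-fold spread of control spots. With snoRNA135, snoRNA202, U87 and Y1 in place of U6, B set ratios are divided by 1.09, and the same 5 stay above 1. With 1 outlying U87 spot left out, a setting chosen after seeing the data, they are divided by 1.16. The starred strands of miR-17, miR-93 and miR-20a are then below 1.

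The starred strand thus stood above the main strand in 5 of 6 member hairpins, with a median of 1.31-fold. All 6 starred assays were in the B set and their main strands in the A set, so strand and assay set cannot be told apart. In 57 other hairpins laid out the same way the starred strand stood higher in 34 (59.6%), with a median of 1.11-fold. The strand that miR-18a's high value belongs to has the sequence below (RefSeq, GRCm38.p6, bases 2 to 8 in capitals) and shares no seed with the members.
miR-18a-3p: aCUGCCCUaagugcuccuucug

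**Figure D4:**
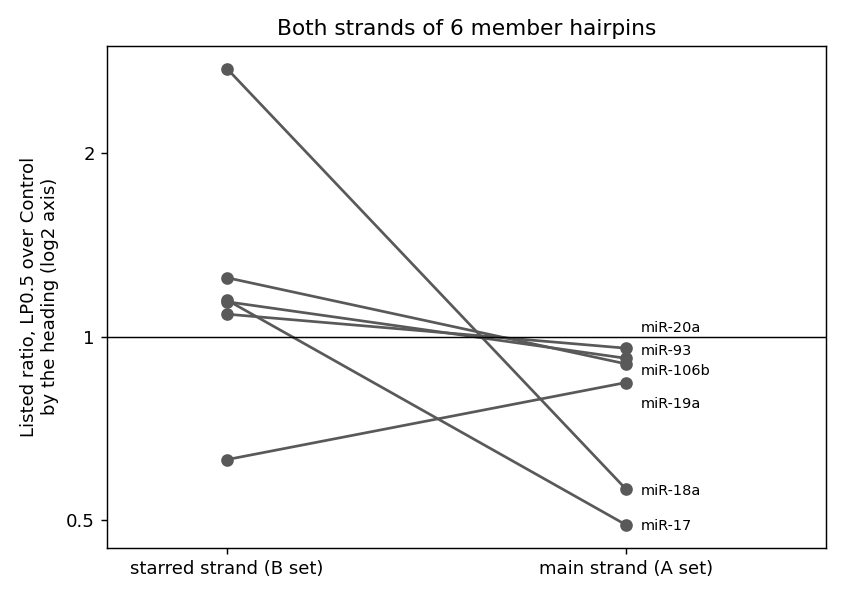
Listed ratio (LP0.5 over Control by the heading, log2 axis) of the starred strand and the main strand of the 6 member hairpins for which both had a ratio, joined by a line. Relative to U6, the starred strand lies above 1 and the main strand below for 5 hairpins, most widely for miR-18a (2.76 and 0.561). For miR-19a both lie below 1. The starred strands of miR-17, miR-106b, miR-93 and miR-20a lie within the 1.37-fold spread of control spots.

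Besides the 6 members of the miR-17 seed family, 12 mature miRNAs of the RefSeq table carry the letters AAGUGC, the last 6 of that seed, within their first 8 bases, among them miR-6383 and also miR-294 and miR-302b of embryonic stem cells. The panel assays 8 of them by 10 assays, of which 2 had a ratio, at 3.63e+07 for miR-294 and 0.106 for miR-302b in the authors' deposited table. One lies above and one below the range of the member assays. Which cycles counted as detected is not given, so whether either miRNA was detected in both groups is unknown. No difference in amount is read from these values. The 9 member names were all below 1, with a median of 0.873. In the let-7 and miR-98 family, known for restraining proliferation and read in the A set, 1 of 9 names was below 1. The let-7 and miR-98 median was 1.17, and their ratios ran from 0.840 to 1.35. All of these lay nearer to 1 than the 1.37-fold spread of control spots around their own medians, as did 7 of the 10 member assays. Relative to the other small RNA controls in place of U6, let-7d, let-7g and let-7i were also below 1, and let-7a, the middle value, was at 1.02. The difference between the families was not tested.

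Markers of other cells that islets can hold did not share a direction. Of 12 assays for acinar, endothelial, blood and mesenchymal miRNAs, 6 were listed below 1 and 6 above. In the authors' deposited table the highest was 2.66, for miR-145. The lowest was 0.190, for the B set assay of miR-143, whose A set assay had 1.11. MiR-217 also lay on both sides of 1, at 0.950 in the B set and 1.83 in the A set. Of the other blood miRNAs, both assays of miR-223 were above 1, as was miR-142-3p at 1.20, while miR-451 was at 0.620. The acinar miR-216a was at 0.726 and miR-216b at 0.970, and the endothelial miR-126 was at 0.975. The count thus holds pairs of assays of the same name, some of which disagree. Of the islet miRNAs, the authors' deposited table gave 1.17 for miR-375 and 0.918 for miR-7a, which was assayed under a fly name. Being ratios, these give no level by which to check the tissue, and the part of cell content in the members' ratios was not tested.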

How the data were processed

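Total RNA of hand-picked islets of 6 LP0.5 and 6 Control samples was measured by TaqMan RT-PCR, per the labels' protocols; the submitters' processing notes name limma with no version or role. The authors deposited linear ratios (fold values) for 846 spots, headed as L.05 vs Control per the file headers, of which 190 are empty. Names of the spots come from another deposited table, which also has 12 columns of per-sample values whose names match no sample label; these were not used, so the planned limma test and its alternatives (late cycles, reference, left-out replicates, replicate block) were not run. How samples were averaged and which cycles counted as detected is not given in the sources used here, and depth is unknown.

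Ratios were converted to log2 and assays of 1 name averaged. Names were matched in lower case without species prefix and arm. The A and B sets, 8 blocks each, follow the spot code. A limit of 1.5-fold described large ratios. Members and lists, among them every member, its cluster partners, starred strands, let-7 and cell markers, were chosen with earlier results of these data known. The reference shifts were tested on simulated data and the name matching on example names. A check of the members' median used members all set to the same value, so its outcome was fixed in advance. Other calculations were not tested in this way. Python 3.11.15, numpy 2.4.6, pandas 2.3.3 and matplotlib 3.10.9 were used.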

Additional observations from a re-analysis of the deposited data

Results flagged for a closer look

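Outside the assays compared above, the negative control drew attention: the plant miRNA, absent from mice, had a median ratio of 3.01 over its 8 spots of the B set, the set that holds the lower of the miR-20b assays. Among its 8 A set spots, the authors' deposited table gave a ratio for 2, 0.139 for one and 1.96 for the other.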

How the results depend on the processing

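Another reference moves every assay of a set by 1 constant, so it tests the members little. The snoRNA135, snoRNA202, U87 and Y1 reference lowers log2 ratios of A set assays by 0.20 and of B set assays by 0.12, or 0.21 without 1 outlying U87 spot, and the set median moves them by less; 9 names were below 1 under each. The setting without the U87 spot, and the medians by set, over every assay and within 1.5-fold of 1, were chosen after seeing the data. Of 9 names below 1, 3 were so by at least 1.5-fold and 2 by at least 2-fold. Mouse-named assays alone gave 2 below 1, with 0 by 1.5-fold, and the B set alone 1 and 1, by construction fewer. The median log2 ratio of -0.20 became -1.96 in the B set, which holds 1 member assay, and ranged from -0.43 to -0.12 under the other settings run. No paired analysis was possible because the ratios carry no replicate values.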
